A study of Homo sapiens with 9 samples.

Results

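The genes described here are 34 genes of glycolysis and of the transcriptional response to low oxygen, chosen by symbol from the array's annotation. They comprised 16 glycolytic enzymes, 2 glucose transporters, 3 kinases that regulate glucose use, the secreted peptides VEGFA and ADM, HIF1A with 2 of its prolyl hydroxylases, and 8 other hypoxia targets. Of the 34, 33 were measured among 19775 named genes, each by its probe set with the highest mean over all arrays, and CA9 was not analysed here. The cells were Jurkat, an established line of human leukaemic T lymphocytes. One group received 100 electrical pulses of 10 ns at 150 kV/cm (nsEP), one was heat shocked in a water bath, and one was sham exposed, that is handled on the pulser with no power applied. Each group held 3 samples called biological replicates, all were exposed in electroporation cuvettes, and RNA was taken 4 h after exposure from the whole sample, which for each exposure is 1 dose at 1 time in 1 cell line. The replicate labels do not say whether the samples came from separate cultures, so the p-values measure the spread between these samples only.

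Glycolysis splits glucose into pyruvate in the cytosol and yields ATP without oxygen, and lactate dehydrogenase then turns pyruvate into lactate. When oxygen is low the prolyl hydroxylases no longer mark the HIF1A protein for degradation, and HIF1A with its partner ARNT binds a short core sequence, A or G followed by CGTG, in hypoxia response elements. Its known targets include most glycolytic enzymes, the glucose transporters and the secreted factors VEGFA, which stimulates the growth of blood vessels, and adrenomedullin, the vasodilator peptide encoded by ADM. Leukaemic T cells use glycolysis at a high rate even in oxygen. Several of these genes have other known inputs besides HIF1A, so a change in one of them is not a reading of HIF1A activity.

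Promoter sequences of 4 genes are shown because they set a secreted target and a stress regulator that were higher after heat shock, ADM and DDIT4, beside 2 enzymes that passed no test, LDHA and PGK1. Each is the 250 bases before the first RefSeq start of the gene on GRCh38.p14, on the plus strand, 5′ to 3′. Capitals mark every ACGTG or GCGTG on either strand, so that CACGTG holds ACGTG on both strands.
ADM: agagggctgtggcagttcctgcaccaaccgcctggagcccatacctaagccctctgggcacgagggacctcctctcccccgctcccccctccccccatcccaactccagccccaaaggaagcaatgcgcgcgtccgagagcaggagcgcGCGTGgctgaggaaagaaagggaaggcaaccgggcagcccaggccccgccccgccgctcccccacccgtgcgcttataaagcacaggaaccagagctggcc
DDIT4: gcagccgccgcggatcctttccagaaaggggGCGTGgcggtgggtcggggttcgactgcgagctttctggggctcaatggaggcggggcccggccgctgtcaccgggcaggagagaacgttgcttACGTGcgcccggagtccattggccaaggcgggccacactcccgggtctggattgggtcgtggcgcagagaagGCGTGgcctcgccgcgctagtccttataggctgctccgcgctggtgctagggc
LDHA: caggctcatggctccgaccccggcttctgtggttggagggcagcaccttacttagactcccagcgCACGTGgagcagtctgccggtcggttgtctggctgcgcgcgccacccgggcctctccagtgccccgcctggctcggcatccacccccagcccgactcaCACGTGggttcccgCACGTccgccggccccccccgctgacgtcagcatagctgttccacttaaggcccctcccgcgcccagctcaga
PGK1: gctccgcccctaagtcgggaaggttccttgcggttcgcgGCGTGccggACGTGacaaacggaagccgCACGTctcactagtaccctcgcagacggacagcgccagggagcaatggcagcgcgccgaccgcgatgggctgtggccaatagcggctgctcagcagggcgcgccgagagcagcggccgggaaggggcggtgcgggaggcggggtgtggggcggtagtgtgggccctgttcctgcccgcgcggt
The ADM stretch lies at chr11:10304823-10305072, the DDIT4 stretch at chr10:72273674-72273923, the LDHA stretch at chr11:18394313-18394562 and the PGK1 stretch at chrX:78103998-78104247. The LDHA stretch held 5 matches to ACGTG counted over both strands and the PGK1 stretch 2, against 0 in the ADM stretch and 1 in the DDIT4 stretch. These 4 do not stand for other genes like them. The stretch of CITED2, also called higher after heat shock, held 2 matches to ACGTG, and those of the enzymes TPI1 and ENO1 held 0. GCGTG was matched 1 time in the ADM stretch, 2 times in the DDIT4 stretch and 1 time in the PGK1 stretch. Of the 34 genes, 30 matched a RefSeq promoter by symbol. The others were VEGFA, SLC2A3, BNIP3L and NDRG1. ACGTG was present in 14 of these 30 stretches (46.7%) and in 8 of the 16 enzymes (50%), against 18.7% of the 27305 promoters of the same length. GCGTG was present in 11 of the 30 (36.7%), against 31.9% of all. The paired core of heat shock elements, GAANNTTC or TTCNNGAA on either strand, was found in 1 of the 30 (3.33%), which was PGK1, against 11.7% of all promoters, and DDIT4 also held 1. A match is a description of the letters and not of binding.

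On the arrays, values are log2 MAS5 signals, and a log2 ratio of 1 is a doubling. Calls were made with limma at an adjusted p under 0.05 over 54613 probe sets. FOS, an immediate early gene, read 10.10, 11.29 and 9.64 in nsEP, up to 12.44 in heat shocked and 2.61, 3.84 and 2.77 in sham samples, where it lay under the first quartile of all probe sets (4.48), so that no size is given for its difference (limma adjusted p = 3.25e-06 for nsEP and 5.96e-08 for heat shock against sham). The heat shock chaperone gene HSPA6 was 8.77 higher after heat shock (adjusted p = 1.01e-08). Among the 13 T cell markers measured, none was called between nsEP and sham, and CD2, CD28 and TRAT1 were lower after heat shock. The summed T cell marker signal was 75716 to 104017 in nsEP, 72023 to 94053 in heat shock and 78649 to 83410 in sham samples. The 5 B cell markers passed no test, and of 5 myeloid markers CD14 was higher after heat shock (adjusted p = 0.00193), at 7.09, 6.69 and 7.42 against 1.26, 2.87 and 2.74 in sham samples, again under the first quartile. The summed myeloid signal was 315 to 358 in nsEP, 567 to 692 in heat shock and 304 to 347 in sham samples, and its part in the results was not tested. The array of nsEP replicate 3 stood apart, at -172.6 on the second principal component (14.17% of variance), where the other 8 lay between -30.6 and 62.6. In bulk RNA, fewer cells of a kind and less RNA per cell cannot be told apart.

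After heat shock the median over all genes was 0.14 higher than in sham on the deposited scale. It was 0.00 after quantile normalization, -0.17 with each array centred on its median and -0.82 with each array scaled to its poly-A spike-in controls. Small log2 ratios of the genes below are therefore given beside these medians. The mean log2 signal of the spike-ins ran from 8.97 to 9.90 in sham, 9.18 to 10.13 in nsEP and 10.19 to 10.89 in heat shocked samples. Poly-A scaling therefore also shifts replicates of a group against each other, which limits what a call lost under it shows.

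Among the 33 genes the clearest difference was between VEGFA and ADM, the 2 listed as secreted peptides, and the enzymes. VEGFA, ADM and the transporter gene SLC2A3 were higher after heat shock than in sham cells and than in nsEP cells, while none of the 16 glycolytic enzymes passed the test in any comparison. The SLC2A3 calls came from 1 of its 3 probe sets. No gene of the 33 passed the test between nsEP and sham. In heat shock against sham 3 of 33 were higher, where 1.72% of all genes were higher, and 0 were lower, where 3.99% of all genes were lower. Between nsEP and sham 0 of 33 were called in either direction, where 0.0506% of all genes were higher and 0.0101% lower, and 3 of 33 had an unadjusted p under 0.05, as did 5.4% of all genes. In nsEP against heat shock 3 of 33 were lower (2.16% of all genes) and 0 higher (3.83% of all genes). The comparisons share arrays in pairs, so the genes lower in nsEP than in heat shock repeat the genes higher in heat shock than in sham.

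**Figure D1:**
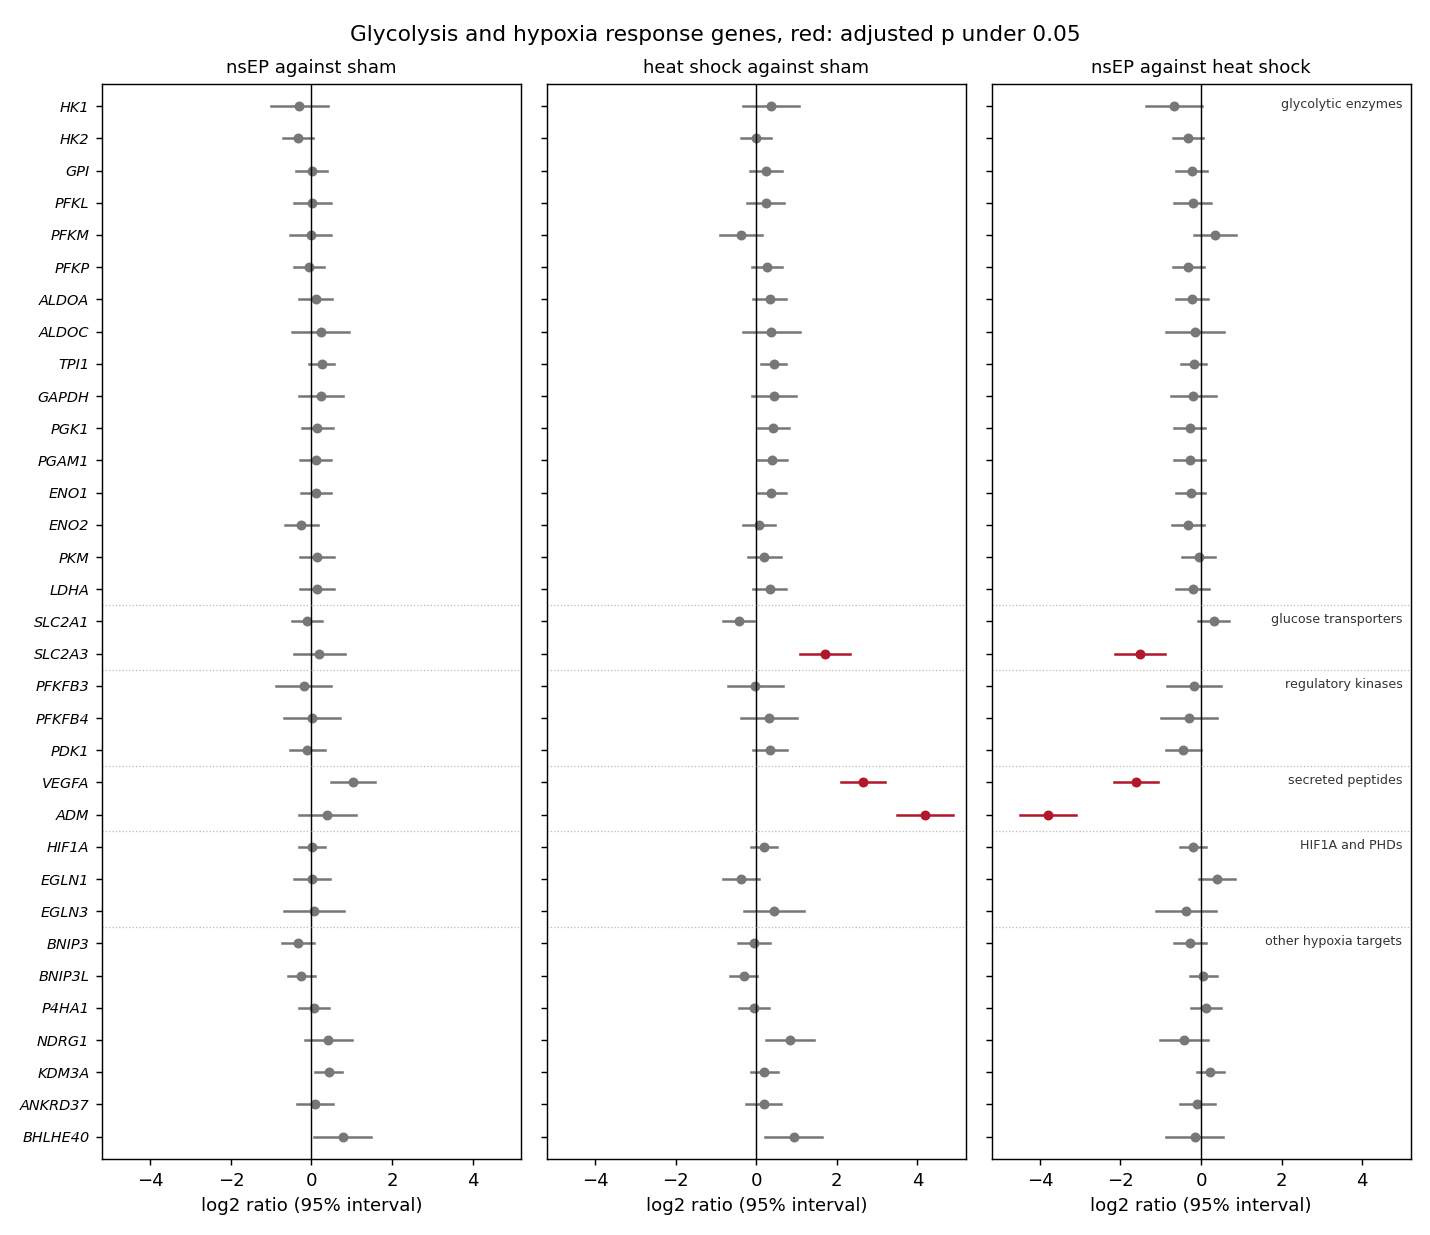
Log2 ratio with its 95% interval for each of the 33 genes (rows, grouped by role) in panels for each comparison, 3 arrays a group, with called genes in red. Only VEGFA, ADM and SLC2A3 are red, in the heat shock panel at 2.65, 4.19 and 1.71, and the enzymes lie between -0.38 and 0.43 there, a span that shifts below zero for all 16 when arrays are scaled to the poly-A spike-ins.

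ADM (chr11:10305073-10307397, GRCh38.p14) had the largest log2 ratios of the 33 genes in both comparisons with heat shock. Its log2 signal was 6.75, 7.04 and 5.89 in the nsEP samples, 10.41, 10.33 and 10.32 in the heat shocked samples and 6.66, 5.85 and 5.98 in the sham samples. The heat shocked arrays lay close together and far above the other 6, whose groups overlapped. ADM was 18.2-fold higher in heat shocked than in sham cells (log2 ratio 4.19, SE 0.32, adjusted p = 1.64e-05) and 13.9-fold lower in nsEP than in heat shocked cells (-3.79, SE 0.32, adjusted p = 5.04e-05). Between nsEP and sham its log2 ratio was 0.39 with a 95% interval of -0.31 to 1.10 (adjusted p = 0.886). Without nsEP replicate 3, the lowest of the nsEP samples for ADM, that ratio was 0.73 (adjusted p = 0.421). ADM had 1 probe set, so no other probe set bears on it.

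VEGFA (chr6:43770211-43786487) separated the 3 groups. Its log2 signal was 9.19, 9.62 and 9.12 in nsEP, 10.49, 10.97 and 11.32 in heat shocked and 8.08, 8.72 and 8.04 in sham samples. No pair of groups overlapped, and nsEP lay between heat shock and sham. VEGFA was 6.27-fold higher in heat shocked than in sham cells (log2 ratio 2.65, SE 0.25, adjusted p = 8.34e-05) and 3.06-fold lower in nsEP than in heat shocked cells (-1.62, SE 0.25, adjusted p = 0.00261). The second of these calls was lost with poly-A scaling (-0.70, adjusted p = 0.322). Between nsEP and sham it had the smallest p of the 33, with a log2 ratio of 1.03, a 95% interval of 0.49 to 1.57 and an unadjusted p of 0.00123, but the adjusted p was 0.275 and the gene was not called. Across the alternatives run, the nsEP against sham ratio of VEGFA stayed between 0.88 and 1.25 and its smallest adjusted p was 0.177.

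All 4 VEGFA probe sets were higher after heat shock, by 0.99 to 3.74, and 2 of 4 were lower in nsEP than in heat shocked cells. Their log2 ratios in nsEP against sham were 0.52 to 2.59, none called. Both the 2.59 (adjusted p = 0.407) and the 3.74 came from a dim probe set with a sham mean of 2.76, under the first quartile, so their sizes are uncertain. VEGFA and BHLHE40 are among the genes that the study itself picked from these samples, so their direction is not independent evidence.

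Of the glucose transporters 1 was called. SLC2A3, which encodes the high-affinity transporter GLUT3 (chr12:7919230-7936187), had log2 signals of 7.52, 8.41 and 8.26 in nsEP, 9.07, 9.74 and 9.92 in heat shocked and 7.83, 8.17 and 7.61 in sham samples. All 3 heat shocked samples lay above the other 6. SLC2A3 was 3.26-fold higher in heat shocked than in sham cells (log2 ratio 1.71, SE 0.29, adjusted p = 0.00513) and 2.85-fold lower in nsEP than in heat shocked cells (-1.51, SE 0.29, adjusted p = 0.00944). The call in nsEP against heat shock was lost without heat shock replicate 3 (-1.34, adjusted p = 0.0567). Of its 3 probe sets only this one was called, and the others read -0.47 and 1.26 in heat shock against sham. In nsEP against heat shock those others read 1.26 and -0.46 (adjusted p = 0.115 and 0.593), so the first went the other way. That first one, of a kind that can also bind related transcripts, averaged 8.37 in nsEP samples against 8.06 for the called probe set. The mean of the 3 probe sets gave 0.83 (adjusted p = 0.194) in heat shock against sham and -0.24 in nsEP against heat shock. With poly-A scaling SLC2A3 was called in neither, at 0.75 and -0.60 (adjusted p = 0.296 and 0.418).

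SLC2A1, which encodes the widespread transporter GLUT1, read 9.66, 9.79 and 10.09 in nsEP, 9.54, 9.28 and 9.76 in heat shocked and 10.05, 9.95 and 9.88 in sham samples. All heat shocked samples lay below all sham samples, with a log2 ratio of -0.43 (adjusted p = 0.218) that passed no test on the deposited scale. With arrays centred on their medians it was called at -0.74 (adjusted p = 0.0247), and with poly-A scaling at -1.38 (adjusted p = 0.0324). Its ratio in nsEP against sham was -0.11 (adjusted p = 0.955).

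**Figure D2:**
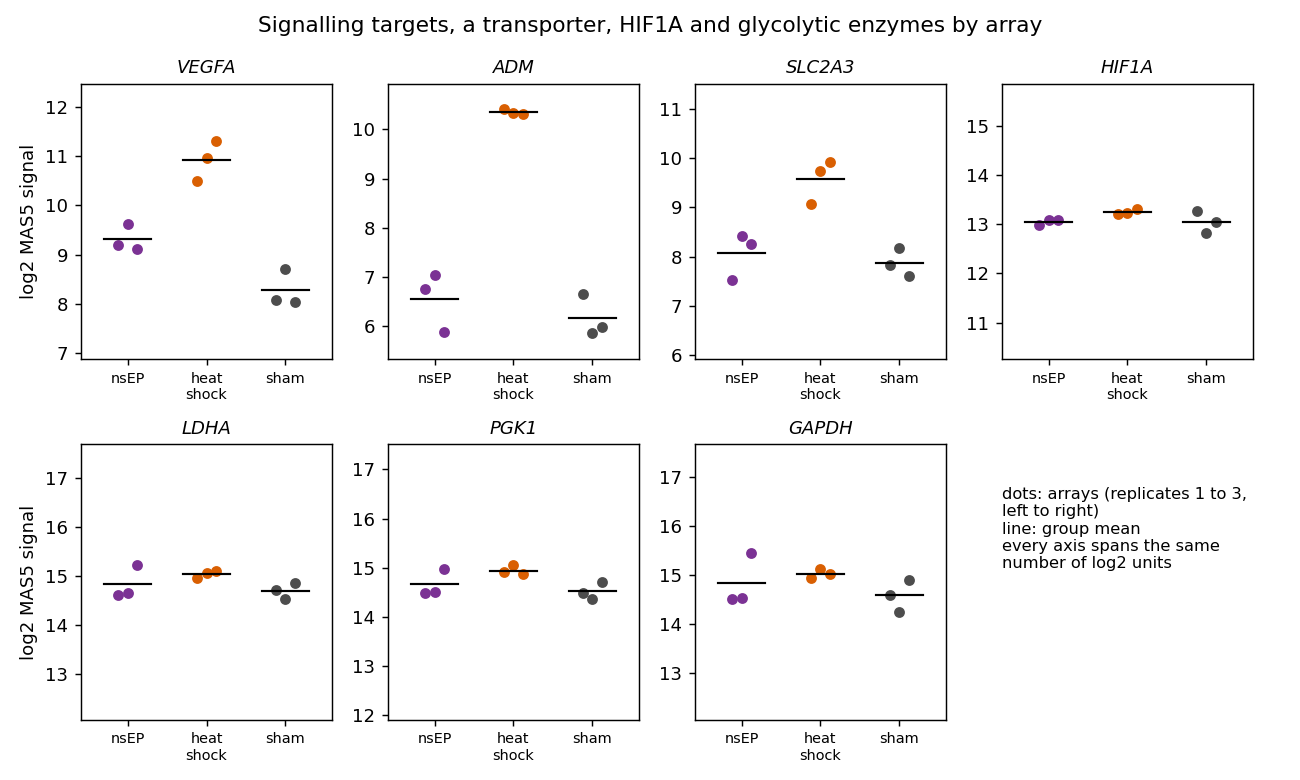
Log2 MAS5 signal of 7 genes on each array (dots, replicates 1 to 3 from left to right) with the group mean (line), for nsEP, heat shock and sham. VEGFA, ADM and SLC2A3 stand higher in all 3 heat shocked samples than in the other 6 samples, while for HIF1A, LDHA, PGK1 and GAPDH the groups lie close together on axes of equal length.

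The 16 glycolytic enzymes, which carry glucose to pyruvate and lactate, passed no test after either exposure. In nsEP against sham their log2 ratios ran from -0.34 for HK2 to 0.25 for TPI1, with a median of 0.10 beside -0.02 over all genes. Their 95% intervals all lay within -0.99 and 0.94. In heat shock against sham the ratios ran from -0.38 for PFKM to 0.43 for TPI1, with a median of 0.33 beside 0.14 over all genes, and the intervals lay within -0.89 and 1.10. The median was -0.02 there over the brightest quartile of genes, which holds 12 of the 16 enzymes. By its brightest probe set the lower bound for VEGFA in heat shock against sham, 2.11, was above the upper bound of every enzyme. Another VEGFA probe set had a log2 ratio of 0.99 there, under the highest of those bounds. Between nsEP and heat shock the enzyme median was -0.23 beside -0.14 over all genes and 0.00 over that quartile.

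The sign of the enzyme medians depended on the scaling. In heat shock against sham 14 of the 16 enzymes lay above zero on the deposited scale, 10 after quantile normalization (median 0.13), 9 with arrays centred on their medians (0.03) and 0 with poly-A scaling (-0.62). Under the same scalings ADM kept log2 ratios of 4.17, 3.88 and 3.24 and VEGFA 2.70, 2.34 and 1.70, and both were called under each of the 3. The enzyme median lay 0.20 above the median of all genes on the deposited scale and 0.12 above it after quantile normalization. Centring and poly-A scaling shift every gene of an array alike, so they could not change that distance. The 6 reference genes measured, ACTB among them, had a median of 0.36 in the same comparison on the deposited scale.

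LDHA, the lactate dehydrogenase subunit, read 14.61, 14.66 and 15.22 in nsEP, 14.96, 15.05 and 15.09 in heat shocked and 14.71, 14.53 and 14.86 in sham samples. PGK1, the first enzyme of the pathway to make ATP, read 14.50, 14.52 and 14.97 in nsEP, 14.90, 15.05 and 14.87 in heat shocked and 14.48, 14.37 and 14.71 in sham samples. GAPDH, which oxidizes glyceraldehyde phosphate, read 14.50, 14.54 and 15.46 in nsEP, 14.93, 15.12 and 15.01 in heat shocked and 14.60, 14.26 and 14.91 in sham samples. In each of the 3 genes the heat shocked samples lay above all sham samples, and nsEP replicate 3 lay above the other nsEP samples.

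The log2 ratio in heat shock against sham was 0.34 for LDHA (SE 0.19, adjusted p = 0.379), 0.42 for PGK1 (SE 0.18, adjusted p = 0.232) and 0.43 for GAPDH (SE 0.25, adjusted p = 0.396). The same genes gave 0.14, 0.14 and 0.25 in nsEP against sham, with adjusted p-values of 0.949, 0.940 and 0.920. TPI1, the triose phosphate isomerase, came nearest to a call among the enzymes, at 0.43 in heat shock against sham (adjusted p = 0.120). The GAPDH, TPI1, ALDOA and PFKL probe sets are of a kind that can also bind related transcripts.

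The enzymes ALDOA, TPI1, GAPDH, PGK1, PGAM1, ENO1 and LDHA, had all 3 heat shocked samples above all 3 sham samples, and none had them all below. Over the 33 genes this held for 12 above and 2 below, where it held for 17.5% and 13.7% of all genes. In the brightest quartile of genes, which holds 12 of the 16 enzymes, the shares were 19.8% above and 27.5% below, and 1.66% and 9.73% of genes there were called higher and lower. All nsEP samples lay above all sham samples for TPI1, VEGFA and KDM3A and below for HK2, where this held for 4.56% and 5.41% of all genes. They lay above all heat shocked samples for 2 of the 33 and below for 8, where this held for 10.7% and 14.4% of all genes.

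The enzymes were also summarized array by array. As the median over the 16 enzymes of the signal less the gene's sham mean, the nsEP samples read -0.03, -0.10 and 0.33, the heat shocked samples 0.35, 0.36 and 0.17 and the sham samples 0.04, -0.14 and 0.07. The reference genes read -0.06, -0.01 and 0.48 in nsEP, 0.38, 0.41 and 0.30 in heat shock and -0.06, -0.20 and 0.23 in sham samples. By these medians, enzymes and reference genes were high on the same arrays, nsEP replicate 3 and the heat shocked ones.

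nsEP replicate 3 was the highest of the 6 nsEP and sham arrays for 10 of the 16 enzymes. It was the lowest of the nsEP arrays for HK2, PFKM, PFKP, ENO2 and PKM, so the enzymes did not all move together. Without it the enzyme median in nsEP against sham was -0.06 and only 3 of 16 lay above zero, against 11 of 16 with it. On that array the 3′ GAPDH control probe set exceeded the 5′ one by 0.56, against -0.22 and -0.11 on the other nsEP arrays, -0.06 to -0.01 in heat shock and -0.05 to 0.26 in sham samples, and the part of this in the enzyme values was not tested. The same difference for the ACTB controls was 1.24 on that array, against 0.31 and 0.37 on the other nsEP arrays, but 1.26 on sham replicate 1. Without nsEP replicate 3 no gene of the 33 was called between nsEP and sham. HK1, a hexokinase that traps glucose in the cell, was then called in nsEP against heat shock (-1.04, adjusted p = 0.0424), where its ratio over all arrays was -0.66 (adjusted p = 0.292).

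**Figure D3:**
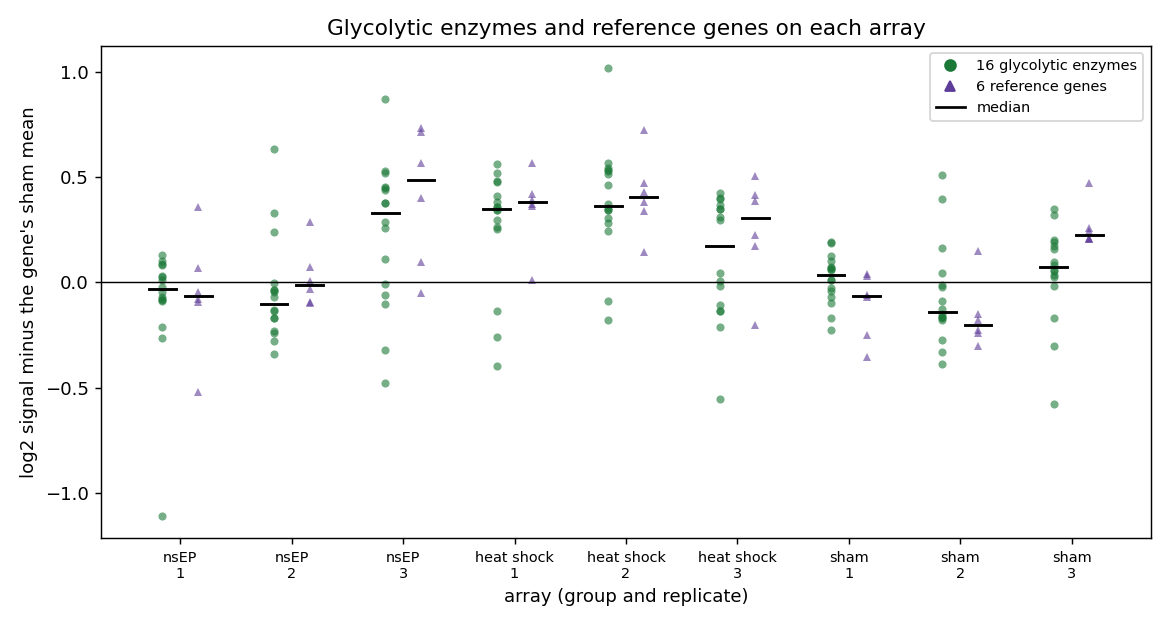
Log2 signal less the gene's sham mean on each array, for the 16 glycolytic enzymes (circles) and 6 reference genes (triangles), with medians as black lines and the arrays named by group and replicate. The enzyme medians are 0.33 on nsEP replicate 3 and 0.35, 0.36 and 0.17 on the heat shocked arrays. The reference gene medians are high on the same arrays. The values are on the deposited scale, and poly-A scaling puts all 16 enzymes below sham after heat shock.

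HIF1A, the oxygen-regulated subunit of the factor, read 12.98, 13.08 and 13.08 in nsEP, 13.21, 13.23 and 13.30 in heat shocked and 13.27, 12.82 and 13.04 in sham samples. The groups lay close together, and the sham samples overlapped both exposures. Its log2 ratio was 0.00 in nsEP against sham (95% interval -0.32 to 0.33, adjusted p = 0.999) and 0.20 in heat shock against sham (-0.12 to 0.52, adjusted p = 0.514). HIF1A is regulated largely through the stability of its protein, which these arrays do not measure.

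EGLN1, which encodes the main prolyl hydroxylase acting on HIF1A, read 11.35, 11.05 and 11.18 in nsEP, 10.49, 11.01 and 10.92 in heat shocked and 10.81, 11.58 and 11.15 in sham samples. The nsEP samples all lay above the heat shocked ones, with a log2 ratio of 0.39 (adjusted p = 0.336) that was called only with arrays centred on their medians (0.71, adjusted p = 0.0448). EGLN3, a hydroxylase gene that is itself a hypoxia target, read 0.05 in nsEP against sham and 0.43 in heat shock against sham (adjusted p = 0.992 and 0.549). Neither hydroxylase gene was called on the deposited scale.

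The kinases that regulate glucose use passed no test. PFKFB3 and PFKFB4 make and break down the sugar bisphosphate that activates phosphofructokinase, and PDK1 switches off pyruvate dehydrogenase. Their log2 ratios were -0.20, 0.02 and -0.10 in nsEP against sham and -0.02, 0.31 and 0.34 in heat shock against sham, and the smallest adjusted p of these was 0.399. PDK1 read 10.03, 10.19 and 9.88 in nsEP and 10.42, 10.80 and 10.19 in heat shocked samples. These nsEP samples lay below all heat shocked ones, with a ratio of -0.44 (adjusted p = 0.25). The other PDK1 probe sets gave 0.55 and -0.11 in nsEP against sham and 1.21 and 0.20 in heat shock against sham, none called.

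Of the other 7 hypoxia targets measured, 3 had the larger ratios and none was called over all 9 arrays. BHLHE40, a basic helix-loop-helix repressor of transcription, read 8.89, 9.26 and 7.73 in nsEP, 8.82, 8.90 and 8.62 in heat shocked and 8.10, 7.77 and 7.70 in sham samples. nsEP replicates 1 and 2 lay near the heat shocked samples and nsEP replicate 3 within the sham range. The log2 ratio was 0.77 in nsEP against sham (adjusted p = 0.659) and 0.93 in heat shock against sham (adjusted p = 0.147). Without nsEP replicate 3 these were 1.22 (adjusted p = 0.0859) and 0.93 (adjusted p = 0.0203), so that the heat shock ratio was then called.

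NDRG1, a stress-responsive gene, read 8.91, 9.66 and 9.80 in nsEP, 9.96, 10.24 and 9.43 in heat shocked and 9.38, 8.87 and 8.87 in sham samples. Its ratio was 0.84 in heat shock against sham (adjusted p = 0.115) and 0.41 in nsEP against sham (adjusted p = 0.835). KDM3A, a histone demethylase gene, read 10.89, 10.98 and 10.62 in nsEP, 10.39, 10.74 and 10.68 in heat shocked and 10.44, 10.37 and 10.41 in sham samples. All nsEP samples lay above the closely grouped sham samples, with a ratio of 0.42 (unadjusted p = 0.0174, adjusted p = 0.590 by limma).

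BNIP3 and BNIP3L, which mark mitochondria for removal, had ratios of -0.33 and -0.26 in nsEP against sham and -0.06 and -0.31 in heat shock against sham, and the smallest adjusted p of these was 0.319. In the same comparisons the other BNIP3 probe set gave 0.16 and 0.37 and the other BNIP3L probe set -0.15 and 0.03, none called. BNIP3L was called lower in heat shock against sham only with arrays centred on their medians (-0.62, adjusted p = 0.0386). P4HA1, a subunit of collagen prolyl hydroxylase, and ANKRD37, an ankyrin repeat gene, had ratios of 0.07 and 0.09 in nsEP against sham and -0.05 and 0.18 in heat shock against sham.

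The wider pathway was read from 3 further lists, 19 glycolysis genes, 40 hypoxia genes and 12 angiogenic ligands and receptors, 71 genes in all. Between nsEP and sham 0 of 71 were called, and 9 had an unadjusted p under 0.05, as did 5.4% of all genes. In heat shock against sham 4 of 71 were higher (1.72% of all genes) and 3 lower (3.99%). Of the 12 angiogenic ligands and receptors beside VEGFA and ADM, 1 was higher there, PGF, and 0 were lower. In nsEP against heat shock 5 were higher (3.83%) and 4 lower (2.16%). None of the 19 further glycolysis genes was called in any comparison, and their median log2 ratio was -0.01 between nsEP and sham, 0.43 between heat shock and sham and -0.25 between nsEP and heat shock.

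CITED2, a coactivator-binding protein that restrains HIF1A, read 7.87, 7.59 and 7.41 in nsEP, 9.48, 9.37 and 9.26 in heat shocked and 7.05, 7.66 and 6.69 in sham samples, 2.24 higher in heat shock than in sham (adjusted p = 0.000463). DDIT4, an inhibitor of mTOR signalling whose promoter is printed above, read 10.39, 11.13 and 10.70 in nsEP, 12.56, 12.30 and 12.57 in heat shocked and 10.56, 11.15 and 10.70 in sham samples, 1.68 higher in heat shock than in sham (adjusted p = 0.000638). In both genes the heat shocked samples stood apart from the other 6. The other CITED2 probe sets gave 1.93 and 1.02 in heat shock against sham and were not called. Both were also lower in nsEP than in heat shocked cells, CITED2 by a log2 ratio of -1.75 (adjusted p = 0.00228) and DDIT4 by -1.74 (adjusted p = 0.000485). With poly-A scaling none of these calls held, at 1.29 for CITED2 and 0.72 for DDIT4 in heat shock against sham (adjusted p = 0.111 and 0.270) and -0.83 and -0.82 in nsEP against heat shock (adjusted p = 0.306 and 0.219). The CITED2 call in nsEP against heat shock was also lost as the mean over its probe sets (adjusted p = 0.0676).

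HMOX1, haem oxygenase, read 6.67, 6.34 and 7.23 in nsEP, 7.61, 7.61 and 7.66 in heat shocked and 6.17, 5.96 and 6.33 in sham samples. It was 1.47 higher in heat shock than in sham (adjusted p = 0.0239), a call that was lost with any 1 of the 6 arrays left out (adjusted p = 0.0512 to 0.0914) and with poly-A scaling (0.52, adjusted p = 0.553). PGF, a placental relative of VEGFA, read 9.98, 10.33 and 10.39 in nsEP, 11.85, 11.46 and 11.94 in heat shocked and 10.90, 10.73 and 10.97 in sham samples. The 3 groups of PGF did not overlap, and the order was nsEP lowest, sham in the middle and heat shock highest.

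PGF was 0.88 higher in heat shock than in sham (adjusted p = 0.0119) and -1.52 in nsEP against heat shock (adjusted p = 0.000341), while nsEP against sham gave -0.64 (adjusted p = 0.370). The heat shock call of PGF was lost without heat shock replicate 1, sham replicate 2 or heat shock replicate 3 (adjusted p = 0.0628, 0.0612 and 0.0621), and with poly-A scaling the ratio was -0.07. The call against heat shock in nsEP cells was lost with poly-A scaling too (-0.60, adjusted p = 0.320). As the mean over its probe sets neither PGF call held, at 0.54 and -0.83 (adjusted p = 0.571 and 0.370). With arrays centred on their medians the heat shock call was lost (0.58, adjusted p = 0.0903). The second, dim PGF probe set gave 0.21 in heat shock against sham and 0.06 in nsEP against sham. The brighter PGF probe set, which gave the values above, is of the kind that can also bind related transcripts. By their brightest probe sets VEGFA and PGF, whose products share a receptor, lay on opposite sides of sham in the nsEP samples, in neither case past the test.

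Other hypoxia genes were lower after heat shock. HILPDA, which encodes a lipid droplet protein, read 10.17, 9.99 and 10.44 in nsEP, 9.03, 9.15 and 8.65 in heat shocked and 10.53, 10.25 and 10.37 in sham samples, -1.44 in heat shock against sham (adjusted p = 0.000787) and 1.26 in nsEP against heat shock (adjusted p = 0.00184). Its second probe set gave -0.92 in heat shock against sham (adjusted p = 0.0362). INSIG2, which holds back sterol synthesis, was -1.09 in heat shock against sham (adjusted p = 0.0185), a call lost without heat shock replicate 1, sham replicate 2 or sham replicate 3 (adjusted p = 0.0844, 0.0659 and 0.0792). ERO1A, an oxidase of the endoplasmic reticulum, was -0.64 (adjusted p = 0.0325), lost with any 1 of the 6 arrays left out (adjusted p = 0.0759 to 0.130). Its other probe sets gave -0.02 and -0.49, neither called, and the mean over all 3 gave -0.38 (adjusted p = 0.150).

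Between the exposures VLDLR, a lipoprotein receptor, read 9.34, 9.77 and 8.79 in nsEP, 7.93, 7.48 and 7.54 in heat shocked and 8.13, 8.33 and 8.03 in sham samples. All nsEP samples lay above all others, with a ratio of 1.65 against heat shock (adjusted p = 0.00286) and 1.14 against sham (adjusted p = 0.232). INSIG2 was 1.05 and the chemokine receptor CXCR4 0.92 higher in nsEP than in heat shock (adjusted p = 0.0201 and 0.0312). The INSIG2 and CXCR4 calls were lost without heat shock replicate 1, nsEP replicate 2 or heat shock replicate 3, with adjusted p-values of 0.0525 to 0.137 between them. The other 2 CXCR4 probe sets were called higher in nsEP than in heat shock, by 1.52 and 1.73 (adjusted p = 0.0126 and 0.0119). In nsEP against sham INSIG2 read -0.04 and CXCR4 0.09 (limma adjusted p = 0.990 and 0.973). In heat shock against sham CXCR4 read -0.82 (adjusted p = 0.0564). Its other 2 probe sets were called lower there, at -1.18 and -1.50 (adjusted p = 0.0481 and 0.0296). JMJD6, which encodes a lysine hydroxylase, was -0.95 in nsEP against heat shock (adjusted p = 0.0329), lost without nsEP replicate 1 or 2 or heat shock replicate 1 or 3 (adjusted p = 0.0977 to 0.138), with arrays centred on their medians (-0.62, adjusted p = 0.126) and with poly-A scaling (-0.030, adjusted p = 0.968). Another JMJD6 probe set was called both there (-4.26, adjusted p = 0.00011) and in heat shock against sham (3.01, adjusted p = 0.00127), and the remaining 2 were called in neither.

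**Figure D4:**
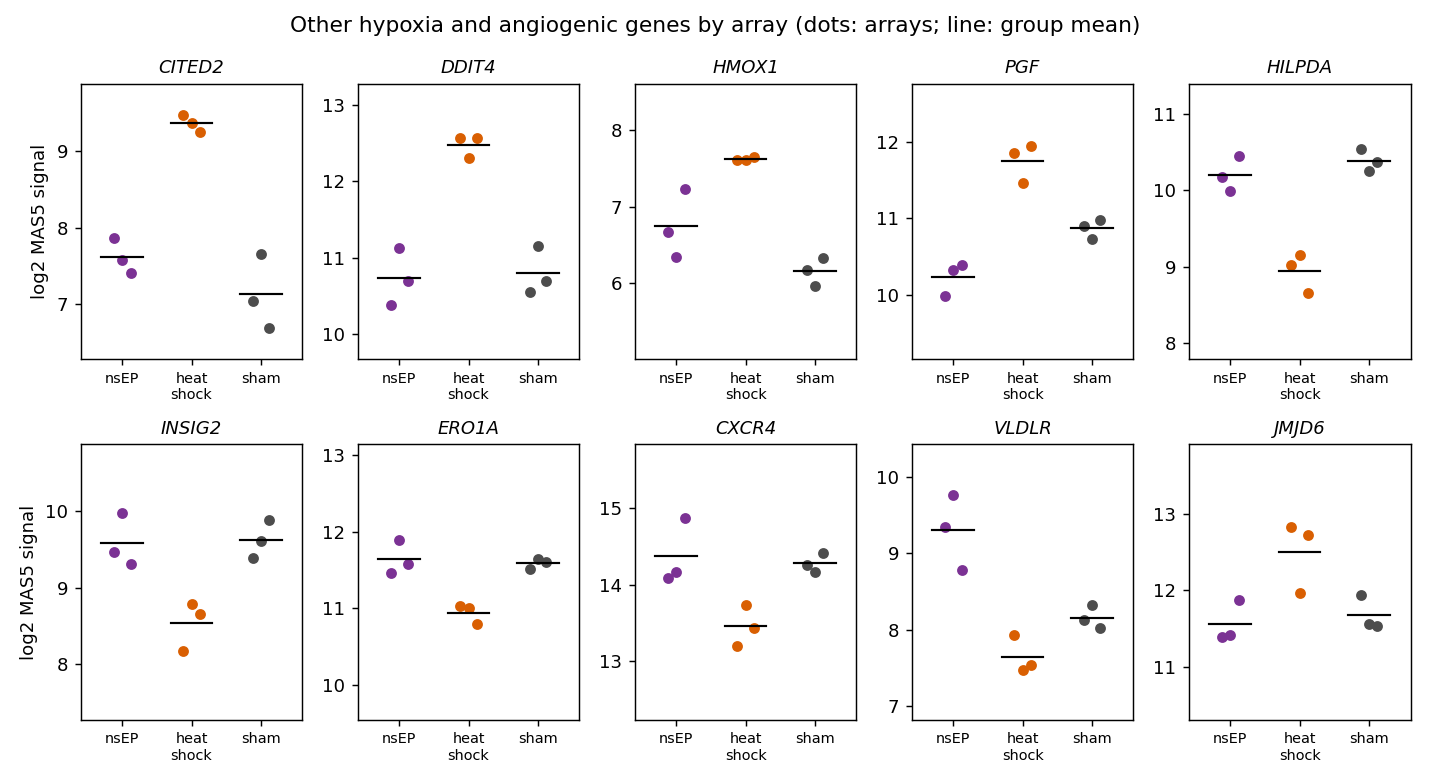
Log2 MAS5 signal on each array (dots) with group means (lines) for 10 genes of the wider hypoxia and angiogenic lists, in nsEP, heat shock and sham, on axes of equal length. CITED2, DDIT4, HMOX1 and PGF are highest in the heat shocked samples, HILPDA, INSIG2 and ERO1A are lowest there, and VLDLR stands at 9.34, 9.77 and 8.79 in nsEP.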

How the data were processed

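Signals of 9 Affymetrix HG-U133 Plus 2.0 arrays (3 nsEP, 3 heat shock, 3 sham) were used. The deposited values are log2 signals that the authors made with MAS5 and then log2 transformed, and each array was scaled to a common trimmed mean, found here as 499.9 with 2% trimmed at each end. Detection calls were not used here. Dim probe sets scatter widely on this scale, and precision is limited by the 3 arrays a group. Of 54675 probe sets, 62 controls were set aside. The platform table gave 41091 of the other 54613 a single symbol (1801 had several and 11721 none listed). limma 3.58.1 in R 4.3.3 fitted 1 mean per group with a variance trend, two-sided, with Benjamini-Hochberg adjustment over 54613 probe sets, and was tested on simulated data. With 3 arrays against 3 an exact permutation test cannot go below p = 0.1. The genes, lists and comparisons were chosen with earlier results of these data known, so lists were counted and not tested. Every one of the genes gets values, array by array for VEGFA, ADM, HIF1A, LDHA, PGK1, GAPDH, SLC2A3 and each gene called, and up to 4 called genes each way of each other list. The array by array values of SLC2A1, EGLN1, PDK1, BHLHE40, NDRG1 and KDM3A were added after their values were seen. Promoters and coordinates are from RefSeq, GRCh38.p14. Alternatives were other scalings, filters, variance models, tests and probe set rules, and each array left out.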

Additional observations from a re-analysis of the deposited data

How the results depend on the processing

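Between nsEP and sham 0 of the 33 genes were called under every alternative run, in either direction. The 3 genes higher in heat shock against sham were 1 with the methods' t-test with adjusted p-values, 2 with poly-A scaling, without the variance trend, with the t-test at its own thresholds or as means over probe sets, 4 with only the 6 arrays of the comparison and 3 to 4 with each array left out (BHLHE40 was added without nsEP replicate 3). The 0 that were lower became 2 with arrays centred on their medians and 1 with poly-A scaling. In nsEP against heat shock the 3 lower genes were 1 with poly-A scaling (ADM), 0 with the t-test after adjustment, 1 with the t-test at its own thresholds, 2 without the variance trend or as means over probe sets and 2 to 4 with each array left out, and the 0 higher were 2 when centred (SLC2A1 and EGLN1).

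Over the 71 wider pathway genes, the t-test at its own thresholds gave 1 lower in nsEP against sham. In heat shock against sham, higher calls (4) were 0 with poly-A scaling, 1 with either form of the t-test and 2 to 5 with each array left out. Lower calls (3) were 6 when centred, 10 with poly-A scaling, 1 without the variance trend, 0 with either form of the t-test and 1 to 4 with each array left out. In nsEP against heat shock, higher calls (5) were 8 with poly-A scaling, 3 with only the 6 arrays of the comparison, 2 without the variance trend, 0 and 1 with the t-test after adjustment and at its own thresholds, and 2 to 5 with each array left out. Lower calls (4) were 0 with poly-A scaling, 0 and 1 with the t-test, 2 with the mean over all probe sets of a gene and 3 to 5 with each array left out. PGF in heat shock against sham turned to -0.070 with poly-A scaling.

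The enzyme median in heat shock against sham was 0.13 after quantile normalization, 0.028 when centred and -0.62 with poly-A scaling, and 0.26 to 0.41 with each array left out. In nsEP against heat shock it was 0.092 when centred, 0.68 with poly-A scaling and -0.35 to -0.15 with each array left out, and in nsEP against sham -0.06 to 0.14. Constructions that shift every gene alike, such as centring and poly-A scaling, leave the distance between the enzymes and VEGFA or ADM as it was.

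Of the 3 called genes among the 33, SLC2A3 lost its calls under the most alternatives, 4 and 5 of 20. Between heat shock and sham it was not called with poly-A scaling (0.75, adjusted p = 0.296), without the variance trend (adjusted p = 0.0577), with the t-test (adjusted p = 0.119) or as the mean of its probe sets. VEGFA in nsEP against heat shock was not called with poly-A scaling (-0.70, adjusted p = 0.322) or the t-test (adjusted p = 0.148). ADM in heat shock against sham was called under every alternative. The replicate block left the 3 genes higher after heat shock and the 3 lower in nsEP than in heat shock at the same counts, and over the wider pathway it gave 5 higher and 4 lower in heat shock against sham. Deviations of samples with the same number correlated at -0.07 to 0.05, and 1 of 9 arrays matched its own number best. No shared effect was thus seen, but these values cannot tell whether such samples had a common culture or batch. The causes of these differences were not tested.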
